A study of Mus musculus with 64 samples.

Results

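This report sets liver tumours of mice that received RAD001 together with BEZ235 against liver tumours of mice that received placebo. The members were chosen by the tissue and treatment labels, which gave 7 combination tumours from 4 animals and 10 placebo tumours from 6 animals, 17 of the 64 arrays of the series. All mice were male C57BL/6 animals that had received 50 mg/kg of diethylnitrosamine by intraperitoneal injection at 2 weeks of age, a chemical that causes liver tumours. Gavage began at about 44 weeks of age, with 2 doses per day for 28 days, and the mice were killed at 48 weeks, fasted for 3 h. The combination held 2.5 mg/kg RAD001 and 18 mg/kg BEZ235. Its last RAD001 dose fell at the start of the fast and its last BEZ235 dose 1 h before sacrifice. Single agent tumours used beside it were 10 from 6 animals on 30 mg/kg BEZ235 and 10 from 6 animals on 10 mg/kg RAD001, so each single agent was given at a higher dose than in the combination. Livers of 7 combination and 7 placebo animals were used too, and 4 animals of each treatment had given both a tumour and a liver.

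Everolimus, here called RAD001, inhibits the mTORC1 kinase complex allosterically, and BEZ235 blocks the catalytic sites of PI3K and mTOR. The pathway carries signals of insulin, growth factors and amino acids to protein synthesis and cell growth, and in liver it restrains FOXO transcription factors, which drive glucose production, and autophagy. Its inhibition also leads to nuclear entry of TFEB and TFE3, which induce genes of lysosomes and of the pathway's own nutrient sensing.

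Tumours of 1 animal were averaged, so that the animal was the replicate. Values are log2 intensities, and a difference is the combination mean minus the placebo mean unless other groups are named. Values of the 4 combination animals are given in the order 713, 726, 773 and 775, from 2, 3, 1 and 1 tumours, and placebo animals by their lowest, median and highest value. The median SD over genes was 0.26 between combination animals and 0.26 between placebo animals. Between tumours of 1 animal it was 0.27 for the combination and 0.30 for placebo. Arrays have no depth, and precision was limited by the number of animals, with a median SE of 0.19 for a difference. RNA came from whole tumours, so fewer cells of a type and less RNA per cell cannot be told apart.

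Combination animal 773 stood apart. A tumour signature score was built from genes at least 2-fold different between placebo tumours and placebo livers. It was scaled so that the mean of placebo livers was 0 and that of placebo tumours 1. Each placebo animal was scored by a signature built without that animal, and other animals by the mean over these 9 signatures. The score came to 0.839, 0.812, 0.390 and 0.870 in the combination tumours, with a mean of 0.727 ± 0.226 (SD, n = 4). In placebo tumours it ran from 0.814 to 1.10, with a mean of 0.962 ± 0.101 (SD, n = 6). The 4 combination animals lay in the lower part of the placebo range or below it, and the single tumour of 773 lay more than midway toward liver. Without 773 the combination mean was 0.840. Single agent tumours spread as widely, from 0.302 to 1.03 with a mean of 0.776 for BEZ235 and from 0.460 to 1.05 with a mean of 0.742 for RAD001. Values without 773 are given below beside many of the differences and list medians. Without it, 277 genes (2.64%) were higher and 291 (2.77%) lower at an unadjusted p under 0.05 against placebo tumours.

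**Figure D1:**
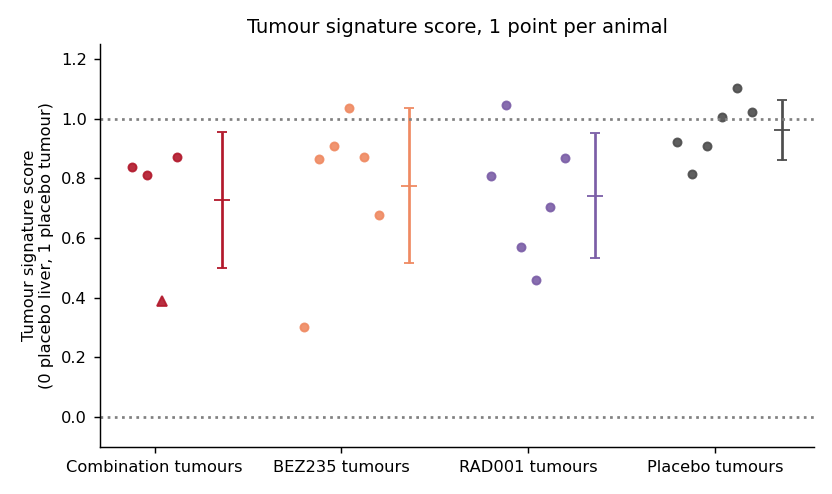
Tumour signature score of each animal (y axis, no unit) in combination, BEZ235, RAD001 and placebo tumours, with bars for mean and SD. The score was scaled to 0 for the mean of placebo livers and 1 for that of placebo tumours, with each placebo animal scored without itself. The triangle is combination animal 773, at 0.390, while the other combination animals lie between 0.812 and 0.870.

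The labelled tissue was checked against its markers. Gpc3, a fetal proteoglycan that marks hepatocellular carcinoma, stood at 9.90, 11.76, 7.88 and 12.90 in combination tumours, and at 10.54, 12.03 and 13.56 in placebo tumours. Placebo livers had a mean of 7.18 and ran from 5.88 to 8.49, a span that holds the tumour of 773 and no other combination tumour. The summed linear intensity of 14 hepatocyte markers ran from 230303 to 260782 in combination tumours and from 236915 to 272616 in placebo tumours, ranges that overlapped. Alb, albumin, is read here by a dim probe and differed by 0.01 (SE 0.37, 0.44 without 773).

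The main question was what the combination changed in tumours. Predicted genes that lack a proper name were left out of the rankings by p. The genes with the lowest p above placebo were Zfp655, a zinc finger gene, and Flcn, which encodes folliculin of the amino acid sensing arm of mTORC1 and is a known TFEB and TFE3 target. Cyp2f2, a cytochrome P450 of periportal hepatocytes, had the largest difference among the 12 lowest p upward. The lowest p below placebo were those of Tap1, a peptide transporter of class I antigen presentation, and Igf2r, the receptor that clears IGF2. None of them passed the limit of 0.05 on the adjusted p of limma's moderated test with 4 combination and 6 placebo animals. Of 10495 genes tested, 0 passed (0%), and the smallest adjusted p was 0.158. At an unadjusted p under 0.05 stood 839 genes (7.99%), 428 of them higher (4.08%) and 411 lower (3.92%). Groups did not overlap for 102 genes upward (0.972%) and 102 downward (0.972%), and 47.7% of genes had a positive difference, with a median of -0.011 over all genes. Fits that drew on more arrays did call genes. With each tumour as an array of its own and the animal as a random block, 10 genes passed. With liver and tumour of all 4 treatments in 1 fit, an alternative added after the data were seen, 19 genes passed (0.181%), 14 higher (0.133%) and 5 lower (0.0476%). The 2 sets shared 5 genes, Zfp655, Flcn, Tmc7, Pim3 and Tap1. The fit of all 8 groups held the same tumour animals and took 1 spread per gene over livers and tumours together. The spread between livers thus entered the SE of a tumour difference, and an adjusted p given below for all 8 groups has that limit. The median SE was 0.187 in that fit and 0.186 in the fit of the 4 tumour groups. Equal medians do not hold for each gene, and the SE of Cyp2f2, given below, was smaller with all 8 groups.

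Zfp655 stood at 9.00, 9.15, 9.02 and 9.57 in combination tumours and at 7.82, 8.36 and 8.60 in placebo tumours, groups that did not overlap. The difference was 0.89 (SE 0.16, adjusted p = 0.158), and the adjusted p was 0.000371 with all 8 groups and 0.00807 with each tumour as an array of its own. Flcn stood at 10.25, 10.49, 10.30 and 10.91 in combination tumours and at 9.01, 9.45 and 9.80 in placebo tumours, again without overlap. Its difference was 1.07 (SE 0.20, adjusted p = 0.158), and its adjusted p was 0.000371 with all 8 groups and 0.0146 with each tumour as an array of its own. The tumours of 1 animal lay close together for Flcn, at 10.15 and 10.35 in animal 713 and at 10.25, 10.53 and 10.69 in animal 726. Both genes differed as much without 773, Zfp655 by 0.94 and Flcn by 1.13. A second, dimmer Flcn probe gave 0.69.

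Cyp2f2 stood at 12.02, 11.85, 14.59 and 11.97 in combination tumours and at 7.42, 9.69 and 10.76 in placebo tumours, so all 4 combination animals lay above all placebo animals. The difference was 3.10 (SE 0.67, adjusted p = 0.214), and 2.44 without 773. With all 8 groups, livers included, its SE was 0.47 and its adjusted p was 0.000371. Within animals its tumours spread more than those for Flcn, from 11.38 to 12.65 in 713 and from 11.17 to 12.87 in 726. Cyp2f2 is a gene that placebo tumours had lost in large part, with a difference of -4.32 between placebo tumours and placebo livers.

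Pim3, a growth-promoting serine/threonine kinase, stood at 10.14, 11.07, 10.53 and 11.41 in combination tumours and at 9.13, 9.37 and 10.22 in placebo tumours, an overlap by 1 placebo animal. Its difference was 1.29 (SE 0.28) and its adjusted p was 0.214, against 0.00293 with all 8 groups and 0.0267 with each tumour as an array of its own. Tmc7, a transmembrane channel-like gene, stood at 8.02, 8.46, 8.44 and 7.60 against 6.55, 6.99 and 7.31 in placebo tumours (1.17, SE 0.24), without overlap, although a second, dim probe gave 0.11. Dact2, a gene linked to Wnt and TGF-beta signalling, stood at 5.76, 5.49, 5.74 and 6.08 against 4.28, 4.64 and 5.19 (1.12, SE 0.22), also without overlap. The lowest and median placebo values of Dact2 lay below 4.92, the log2 value of the lowest detected signal. Without 773 the differences were 1.06 for Tmc7 and 1.12 for Dact2.

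The other genes of the leading 12 upward were Pbld2 (1.35), Leng9 (0.93), Mtus1 (0.72), Cish (2.15), Rassf1 (1.02) and Plekhg6 (0.83), with an adjusted p of 0.455 each. Cish, a feedback inhibitor of growth hormone and cytokine signalling that is induced by STAT5, stood at 8.15, 8.34, 9.64 and 8.16 in combination tumours (2.15, SE 0.55, 1.79 without 773) and at 5.29, 6.11 and 8.60 in placebo tumours. Placebo animal 710 held the highest value there and overlapped with the combination. Rassf1, a tumour suppressor gene that acts in the Hippo pathway, stood at 7.89, 8.24, 8.39 and 8.72 in combination tumours and at 7.12, 7.28 and 7.50 in placebo tumours, without overlap.

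Downward, Tap1 stood at 5.63, 5.07, 5.13 and 5.19 in combination tumours and at 5.89, 6.31 and 6.79 in placebo tumours. Groups did not overlap, and the difference was -1.02 (SE 0.22, adjusted p = 0.214). Its adjusted p was 0.0355 with all 8 groups and 0.0388 with each tumour as an array of its own. The size for Tap1 depended on the background step. Its difference was -0.63 (adjusted p = 0.370) with an offset of 50 and -1.44 (adjusted p = 0.212) without background correction. Igf2r stood at 7.39, 7.18, 7.90 and 7.34 in combination tumours and at 8.00, 8.34 and 8.78 in placebo tumours, with no overlap and a difference of -0.93 (SE 0.22, adjusted p = 0.455, 0.00754 with all 8 groups). A second Igf2r probe gave -1.02. Without 773 the difference was -1.07 for Igf2r and -0.98 for Tap1.

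Nrarp, a feedback inhibitor of Notch signalling, differed by -1.04 (SE 0.26) and Csrnp2, a nuclear protein gene, by -0.77 (SE 0.19). Nrarp stood at 6.44, 6.15, 5.40 and 5.18 in combination tumours and at 6.59, 6.83 and 7.11 in placebo tumours, without overlap. The remaining leading genes downward were Pdcl (-0.52), Tmem50b (-0.88), Zswim1 (-0.77), Leprotl1 (-0.66), Xpr1 (-0.50), Iffo2 (-0.76), Rab39b and Ssbp4. Rab39b and Ssbp4 were not above noise on any combination array, which gives bounds of at least 1.37-fold lower for Rab39b and at least 1.14-fold lower for Ssbp4 in combination tumours. All had an adjusted p of 0.455.

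**Figure D2:**
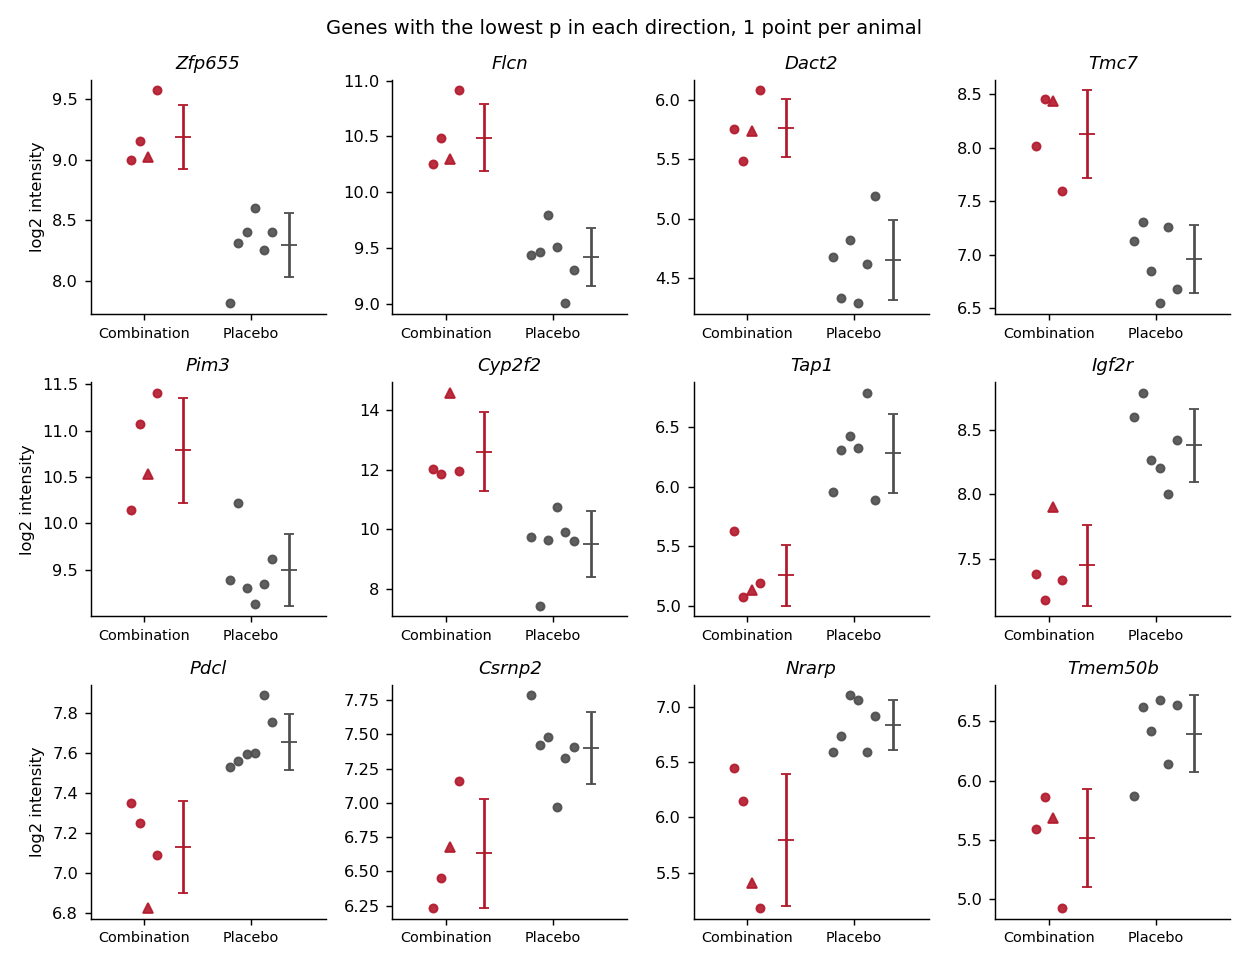
Log2 intensity (y axis, a scale of its own in each panel) in combination tumours (left) and placebo tumours (right) for the 6 leading genes of each direction, 1 point per animal, with mean and SD beside the points and a triangle for animal 773. Groups do not overlap in any panel but those of Pim3 and Csrnp2, and no gene passed the limit in the fit of the 4 tumour groups. The genes were picked by their low p in this same comparison. Over all genes tested, 0.972% did not overlap upward and 0.972% downward.

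Metabolic gene lists of liver differed in how far their medians moved without animal 773. Among 23 cytochrome P450 and drug metabolism genes 17 had a positive difference, with 6 higher and 0 lower at an unadjusted p under 0.05, where 4.08% of all genes were higher, and a median of 0.41. Per animal, the median over the list lay at 0.05, 0.31, 1.11 and 0.07 above the placebo mean, against placebo animals from -0.25 to 0.19. Without 773 the difference had a median of 0.24, with 2 of the 23 genes higher at that p against 2.64% of all genes. Nr1i2, the xenobiotic receptor PXR, differed by 0.56 (SE 0.21) and Cyp2b10, a drug-inducible P450, by 2.44 (SE 0.96). Cyp2b10 stood at 6.87, 6.56, 8.39 and 7.59 in combination tumours and at 4.39, 4.54 and 6.17 in placebo tumours, which did not overlap. Its lowest and median placebo values lay below 4.92, the lowest detected signal, and its dimmer probe gave 0.07.

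Conjugating enzymes had 18 of 23 members positive and a median of 0.35, with Ugt2b1, a glucuronosyltransferase, at 1.13 (SE 0.41, 0.68 without 773), and the list median was 0.10 without 773. Bile acid genes had 15 of 22 positive, 6 higher at an unadjusted p under 0.05 against 4.08% of all genes, and a median of 0.29. Without 773 the median was 0.16 with 1 gene higher at that p, against 2.64% of all genes. Cyp8b1, the sterol hydroxylase that sets the share of cholic acid, stood at 10.33, 9.27, 14.25 and 11.84 in combination tumours and at 5.76, 9.16 and 10.31 in placebo tumours (2.67, SE 1.03, 1.73 without 773), an overlap. Cyp7a1, the rate-limiting enzyme of bile acid synthesis, stood at 8.01, 5.35, 10.85 and 8.61 against 4.70, 5.93 and 7.88 in placebo tumours (2.11, SE 0.97, adjusted p = 0.607, 1.23 without 773). Animal 726 lay inside the placebo range for Cyp7a1. Klb, the co-receptor through which FGF hormones act on liver, differed by 0.90 (SE 0.34).

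Male-biased liver genes, which growth hormone pulses maintain, had 11 of 15 positive and a median of 0.53, but 0.07 without 773, 0.27 without 775 and 0.34 without placebo 696. In that list Ces3b, a carboxylesterase, differed by 2.18 (SE 0.81) and stood above all placebo animals in all 4 combination animals, with a lowest value of 8.86 against a highest of 8.53. Fatty acid oxidation and PPARalpha targets had 18 of 20 positive with a median of 0.23, and 14 of 20 with a median of 0.15 without 773. That median was 0.42 without combination 775 and 0.40 without placebo 710. Angptl4, a fasting-induced inhibitor of lipoprotein lipase, led that list at 0.88 (SE 0.34). The respiratory chain had 20 of 24 positive, with a median of 0.20 (0.10 without 773).

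Urea cycle and amino acid genes had 17 of 25 positive, 4 higher at an unadjusted p under 0.05 against 4.08% of all genes, and a median of 0.49. Their per-animal medians were 0.32, 0.40, 0.47 and 0.49 and lay inside the placebo range, which ran from -0.48 to 0.58. The list median was 0.39 without 773 and 0.32 without placebo 747. Gnmt, the glycine methyltransferase that buffers S-adenosylmethionine, stood at 13.18, 13.73, 13.44 and 12.94 in combination tumours and at 11.71, 12.47 and 12.78 in placebo tumours. Dmgdh, an enzyme of choline breakdown, stood at 6.62, 7.06, 7.10 and 7.26 against 6.07, 6.34 and 6.58 in placebo tumours. Neither gene overlapped between the groups, and the differences were 0.95 (SE 0.40) for Gnmt and 0.68 (SE 0.25) for Dmgdh. Arg1, arginase of the urea cycle, differed by 0.79 (SE 0.32) with overlap, and by 0.52 without placebo 710.

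Periportal genes, those of the hepatocytes near the portal vein, had 9 of 12 positive, with 4 higher at an unadjusted p under 0.05 against 4.08% of all genes, and a median of 0.52. That median was 0.62 without 773, 0.29 without placebo 747 and 0.11 without placebo 710. Lists can share members, and Cyp2f2 was counted both here and among the P450 genes. Pericentral and Wnt target genes, those of hepatocytes near the central vein, had 4 of 18 positive, 3 lower at that p against 3.92% of all genes, and a median of -0.60, which was -0.77 without 773 and -0.34 without placebo 710. Placebo tumours themselves spread widely for both lists, from -1.32 to 0.93 for the periportal and from -0.81 to 1.26 for the pericentral median, and the combination animals lay within those spans but for animal 713 at -0.93 for pericentral genes. Rhbg, an ammonium transporter of pericentral cells, stood at 5.01, 4.54, 4.96 and 4.82 in combination tumours and at 4.69, 5.86 and 8.65 in placebo tumours. Slc13a3, a carboxylate transporter, differed by -1.38 (SE 0.59) and Gulo, of vitamin C synthesis, by -0.98 (SE 0.38). Glul, glutamine synthetase, was not above noise on any combination array and was above it on 5 of 10 placebo arrays. It stood at 4.39, 4.61, 4.79 and 4.71 in combination tumours and at 4.34, 4.86 and 6.43 in placebo tumours, so the groups overlapped (-0.54, SE 0.38, -0.29 without placebo 710). As the combination values lie below noise, the means give only a bound, at least 1.18-fold lower in combination tumours.

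Targets of FOXO and genes of gluconeogenesis had 13 of 17 positive with a median of 0.21 (0.24 without 773, 0.41 without combination 713, 0.33 without placebo 748), 4 of them higher at an unadjusted p under 0.05 against 4.08% of all genes. Depp1, a FOXO target that regulates autophagy, stood at 12.28, 12.66, 12.27 and 12.10 in combination tumours and at 10.56, 10.97 and 11.87 in placebo tumours, which did not overlap (1.16, SE 0.36, adjusted p = 0.487). Pck1, the gate enzyme of gluconeogenesis, stood at 6.54, 7.76, 6.61 and 7.00 against 5.32, 5.80 and 6.80 in placebo tumours (1.10, SE 0.40), and Irs2, the insulin receptor substrate that FOXO induces, differed by 0.70 (SE 0.31). G6pc, which frees glucose from its phosphate, differed by 0.64 (SE 0.43), with animal 713 at 11.05 and the other 3 between 13.16 and 13.52, and by 1.20 without 713 or 0.38 without 775. Igfbp1, another FOXO target, ran the other way at -0.80 (SE 0.69), as animals 713 and 773 stood at 7.46 and 6.51 while placebo tumours ran from 9.13 to 9.84 and animals 726 and 775 lay above them at 10.10 and 10.57. Its difference was -0.09 without 773, -0.40 without 713, -1.28 without 726 and -1.44 without 775.

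The IGF and growth hormone axis held genes of opposite sign. Igf1, the growth factor that hepatocytes secrete under growth hormone, stood at 10.71, 10.86, 11.36 and 10.06 in combination tumours and at 7.51, 9.06 and 9.73 in placebo tumours, without overlap. Its difference was 1.85 (SE 0.50, adjusted p = 0.455, 0.0110 with all 8 groups), and 1.64 without 773. Socs2, a feedback inhibitor of growth hormone signalling, differed by 1.05 (SE 0.43). Igf2, the fetal growth factor, stood at 5.78, 6.15, 6.43 and 6.44 in combination tumours and at 4.89, 7.55 and 9.13 in placebo tumours, inside the placebo range (-0.98, SE 0.99, -0.59 without placebo 710 and -0.65 without placebo 771). Of the 14 genes of the axis 5 were positive.

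Slc2a2, the glucose transporter GLUT2 of hepatocytes, stood at 10.69, 11.02, 11.11 and 10.80 in combination tumours and at 8.82, 9.43 and 10.57 in placebo tumours, without overlap. The difference was 1.44 (SE 0.41, adjusted p = 0.455, 0.0316 with all 8 groups), and its 3 probes gave 1.30 to 1.56. It was the only gene of 19 in the glycolysis and hypoxia list that was higher at an unadjusted p under 0.05, against 4.08% of all genes. The list median was 0.07. Apoa5, an apolipoprotein that lowers plasma triglyceride, differed by 1.35 (SE 0.44) without overlap, while its list had 5 of 17 positive and a median of -0.09. Cebpa, Cebpb and Prox1 are transcription factors of hepatocytes. Cebpb differed by 0.82 (SE 0.23), Cebpa by 0.60 (SE 0.22) and Prox1 by 0.83 (SE 0.37), and combination and placebo animals did not overlap for Cebpb, at 11.62, 11.90, 11.56 and 11.50 against 10.29, 10.72 and 11.32. The list of hepatocyte transcription factors as a whole had 9 of 17 positive with a median of 0.02 (0.17 without 773).

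The circadian clock list had 12 of 17 positive, 4 higher at an unadjusted p under 0.05 against 4.08% of all genes, and a median of 0.50, which was 0.64 without 773. Its per-animal medians were 0.90, 0.20, 0.13 and 0.39 in combination tumours and ran from -0.38 to 0.59 in placebo tumours, so 3 of the 4 combination animals lay inside the placebo range. Cry2, a repressor of the circadian clock, stood at 6.46, 6.39, 6.15 and 6.01 in combination tumours and at 5.23, 5.39 and 5.87 in placebo tumours, without overlap (0.83, SE 0.23). Per2, its partner, stood at 8.79, 8.81, 7.51 and 8.06 against 6.97, 7.28 and 8.43 (0.83, SE 0.27, 1.09 without 773), and Bhlhe40, a further clock repressor, differed by 0.75 (SE 0.28). The hour of sacrifice of each animal is not given in the sources used here, and its part in these values was not tested.

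NRF2 targets, which answer oxidative stress, had 15 of 18 positive with a median of 0.28, but 0.06 without 773 and 0.50 without 775. Osgin1, an oxidative stress induced growth inhibitor gene, stood at 11.44, 11.90, 12.20 and 12.89 in combination tumours and at 10.80, 10.96 and 11.91 in placebo tumours, an overlap by placebo animal 771. The difference was 1.00 (SE 0.29, adjusted p = 0.455) and 0.97 without 773. Gclc and Gclm, the subunits of glutathione synthesis, differed by 0.78 (SE 0.30) and 0.65 (SE 0.30), values that were 0.34 and 0.28 without 773.

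Lists of genes of the drugs' own pathway and of processes it controls had medians close to placebo with all animals in the fit. The mTOR and PI3K pathway list, which does not hold Flcn, had 12 of 23 positive and a median of 0.04. It had 0 genes at an unadjusted p under 0.05, against 7.99% of all genes. Autophagy genes had 17 of 27 positive, 2 higher at that p against 4.08% of all genes, and a median of 0.06. Atg2a, of lipid transfer to autophagosomes, differed by 0.52 (SE 0.18) and Gabarapl1, an LC3-family gene, by 0.88 (SE 0.32). Gabarapl1 was 0.48 without 773, and another Atg2a probe gave -0.11. Sqstm1, the cargo receptor p62, stood at 11.80, 11.70, 11.89 and 11.52 in combination tumours and at 10.97, 11.30 and 12.02 in placebo tumours (0.36, SE 0.28), and Map1lc3b, LC3B, differed by 0.09 (SE 0.20, 0.03 without 773). Lysosomal genes had 9 of 23 positive and a median of -0.08. Fatty acid synthesis had 7 of 15 positive (-0.02, and 0.09 without 773), with Fasn, fatty acid synthase, at 0.31 (SE 0.25, 0.19 without placebo 747), cholesterol synthesis 8 of 16 (0.01, but 15 of 16 and 0.27 without 773), ribosomal proteins 8 of 12 (0.04) and ribosome biogenesis 12 of 17 (0.08), the value in parentheses being the list median.

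Among proliferation genes, mitosis genes had 1 of 14 positive, 5 lower at an unadjusted p under 0.05 against 3.92% of all genes, and a median of -0.59, which was -0.65 with 3 genes at that p without 773 (2.77% of all genes) and -0.24 without 726. The per-animal medians were -0.29, -1.61, -0.31 and 0.03, and placebo animals ran from -0.55 to 0.42, so only animal 726 lay outside the placebo range. Cenpa, a centromeric histone, stood at 9.88, 9.67, 9.24 and 10.67 in combination tumours and at 10.24, 10.56 and 10.71 in placebo tumours (-0.66, SE 0.22). Top2a, the topoisomerase of dividing cells, differed by -0.82 (SE 0.37), and Bub1b, a spindle checkpoint kinase, by -0.44 (SE 0.17). DNA replication genes had 4 of 20 positive and a median of -0.23, with 1 lower at that p, against 3.92% of all genes. Without 773 the median was -0.45 with 5 lower, against 2.77% of all genes, and the median was -0.15 without 726 and -0.12 without placebo 769. Cdc6, which loads the replicative helicase, differed by -0.64 (SE 0.22) and Mcm2, a subunit of that helicase, by -0.55 (SE 0.28), while the dimmer of the Cdc6 probes gave 0.20. Among growth arrest and p53 targets 7 of 18 were positive with a median of -0.20 (-0.08 without 773, -0.34 without 775, -0.12 without placebo 747), with Bbc3, the apoptosis gene PUMA, at 0.91 (SE 0.31) and Zmat3 at -0.65 (SE 0.23), although the other 2, dim Bbc3 probes gave -0.01 and 0.21.

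Fetal and carcinoma markers had 3 of 19 positive and a median of -0.71, which was -0.49 without 773. Kif5c, a kinesin that is high in these tumours, stood at 6.36, 8.16, 4.95 and 8.02 in combination tumours and at 8.35, 9.10 and 10.16 in placebo tumours, without overlap (-2.34, SE 0.93, adjusted p = 0.532, -1.69 without 773). Afp, the fetal serum protein, stood at 7.79, 6.46, 4.93 and 8.55 against 6.66, 8.11 and 9.89 in placebo tumours (-1.21, SE 0.88, -0.54 without 773), and Gpc3 differed by -1.55 (SE 1.14, -0.64 without 773). Cd63, a tetraspanin of lysosomes and exosomes, stood at 12.43, 12.57, 10.48 and 12.53 against 12.44, 12.64 and 12.71 in placebo tumours, so that its difference of -0.62 came to -0.11 without 773.

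The list of interferon response and class I presentation genes had 1 of 18 positive, 4 lower at an unadjusted p under 0.05 against 3.92% of all genes, and a median of -0.58. Its per-animal medians were -0.33, -0.72, -0.01 and -1.14 in combination tumours and ran from -0.34 to 0.32 in placebo tumours, so animals 713 and 773 lay inside the placebo range. The list median was -0.75 without 773, with 5 genes lower at that p against 2.77% of all genes, and -0.37 without 775. Isg15, an interferon-induced ubiquitin-like protein, stood at 8.12, 6.78, 7.25 and 6.66 in combination tumours and at 8.17, 8.46 and 8.68 in placebo tumours, without overlap (-1.22, SE 0.53, adjusted p = 0.589). Nlrc5, the transactivator of class I genes, differed by -0.63 (SE 0.28).

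**Figure D3:**
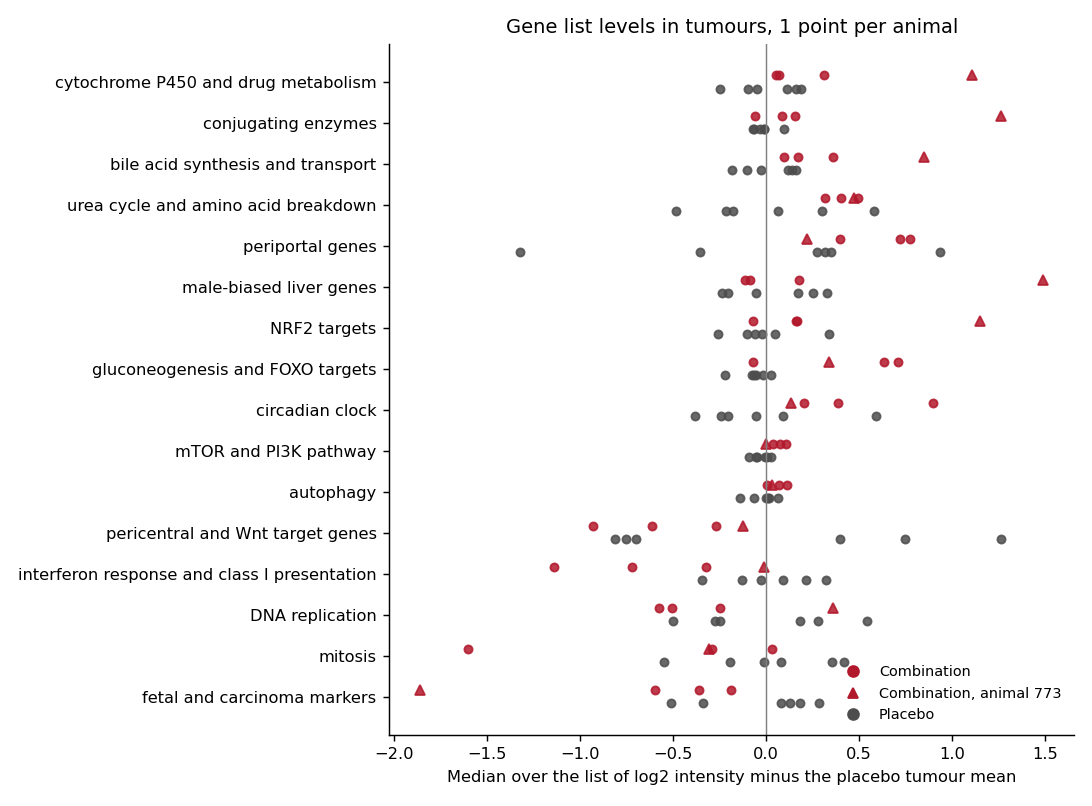
Median over each gene list of the log2 intensity minus the placebo tumour mean (x axis), 1 point per animal, for 16 lists, with combination animals above placebo animals in each row and a triangle for animal 773. Animal 773 lies apart for P450, conjugating, male-biased, NRF2 and fetal genes, and the combination animals lie together for urea cycle genes, between 0.32 and 0.49 and inside the placebo range.

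Markers of other cells are given beside these lists. T and NK cell markers had 1 of 10 positive with a median of -0.28, and their summed intensity ran from 137 to 288 in combination tumours and from 174 to 1007 in placebo tumours. Cd3e, the defining T cell gene, stood at 4.58, 4.74, 5.02 and 4.32 in combination tumours and at 4.65, 5.26 and 6.09 in placebo tumours, near the floor of the scale. Genes of MHC class II presentation had 1 of 9 positive with a median of -0.12 and sums from 2099 to 7197 against 1690 to 6857 in placebo tumours. Macrophage and Kupffer cell markers had 3 of 14 positive with a median of -0.10, and sums from 4482 to 10180 against 2410 to 8445 in placebo tumours. Animal 773 was the highest combination animal for the medians of both lists, at 0.79 and 0.52, and without it the medians of the differences were -0.46 and -0.27, and -0.44 for T and NK cells. The T and NK cell median was -0.18 without placebo 747 and -0.42 without placebo 771. Cd163, a scavenger receptor of macrophages, stood at 4.46, 5.60, 6.24 and 6.07 in combination tumours and at 4.38, 4.69 and 4.90 in placebo tumours, an overlap by animal 713. All placebo values of Cd163 lay below 4.92, the lowest detected signal. Slc40a1, the iron exporter of Kupffer cells, differed by 0.88 (SE 0.34, 0.55 without 773). The part of these cells in the interferon and class I values was not tested.

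Endothelial markers had 3 of 20 positive with a median of -0.16, which ran from -0.25 to -0.08 without single animals, and Esam, an endothelial adhesion gene, at -0.42 (SE 0.15). Their sums ran from 6055 to 8679 in combination tumours and from 6150 to 10238 in placebo tumours. Stellate cell and matrix genes had 5 of 21 positive with a median of -0.14 and sums from 5494 to 8000 against 7214 to 10531, with Reln at -1.41 (SE 0.50). Cholangiocyte markers had 2 of 8 positive with a median of -0.33, and all 4 combination animals lay between -0.35 and -0.31 for that median, below the placebo animals, which ran from -0.24 to 0.28. Their sums overlapped, from 6288 to 12631 in combination tumours and from 7407 to 14360 in placebo tumours. Among the 45 lists, iron handling separated by its per-animal medians too, as given below. B and plasma cell markers had 3 of 6 positive with a median of 0.03 and Mzb1, a plasma cell gene, at -1.02 (SE 0.37), neutrophil markers 8 of 10 with 0.17, and erythroid markers 1 of 4 with -0.17.

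The remaining lists had medians between -0.09 and 0.14, with 9 of 23 positive for acute phase genes, 13 of 21 for the unfolded protein response and ATF4, 6 of 11 for serine and one-carbon synthesis, 4 of 9 for ERK feedback genes, 3 of 8 for YAP targets and 12 of 14 for iron handling. Iron handling had 4 genes higher and 1 lower at an unadjusted p under 0.05, where 4.08% of all genes were higher and 3.92% lower. Without 773 it had 0 of both, where 2.64% of all genes were higher and 2.77% lower. The per-animal medians of iron handling were 0.15, 0.15, 0.35 and 0.15 in combination tumours. They lay above the placebo animals, which ran from -0.17 to 0.11. The median of the list was 0.14, and 0.06 without 773. The median of the unfolded protein response and ATF4 list was 0.06, and 0.23 without 773. Early response genes, which can be induced within minutes, had 7 of 15 positive with a median of -0.01. Among them Klf6, a tumour suppressor factor, differed by 1.17 (SE 0.33) and Klf2, a quiescence factor of endothelium, by -0.75 (SE 0.27).

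The combination was then set against each single agent in tumours, where doses differed as given above. Limma called 0 genes against BEZ235 tumours (0%), where 300 (2.86%) had an unadjusted p under 0.05, and the smallest adjusted p was 0.9999. The lowest p upward were those of Cry2 (0.97, SE 0.23) and Per2 (1.09, SE 0.27). Per2 ran in BEZ235 tumours from 6.90 to 7.54, and the combination animal 773, at 7.51, was the only one within that range. Tap1 was among the lowest p downward (-0.79, SE 0.22), with BEZ235 tumours at 5.59, 5.96 and 6.62. Equal levels were not shown by this, since the SE of a difference had a median of 0.19.

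Against RAD001 tumours 2 genes passed (0.0191%), and both were higher in combination tumours. Osgin1 ran in RAD001 tumours at 9.09, 10.13 and 10.30, and all 4 combination animals, from 11.44 upward, lay above them. The difference was 2.16 (SE 0.29, adjusted p = 0.00196), 2.21 with an adjusted p of 0.0588 when 1 tumour per animal was used. Depp1 ran at 8.89, 10.42 and 11.25 in RAD001 tumours, against a lowest combination value of 12.10. Its difference was 2.14 (SE 0.36, adjusted p = 0.0348). Leaving out any 1 combination animal ended the call of Depp1, with an adjusted p from 0.103 without 773 to 0.245 without 726. So did leaving out placebo animal 769 (0.0528) or 771 (0.0582), or having no background correction (0.0727) or no filter (0.0786). For both genes RAD001 tumours lay below placebo tumours and BEZ235 tumours did not, by -1.17 and 0.09 for Osgin1 and by -0.98 and 0.98 for Depp1. Both sets of tumours share the placebo animals, and none of these 4 differences passed.

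**Figure D4:**
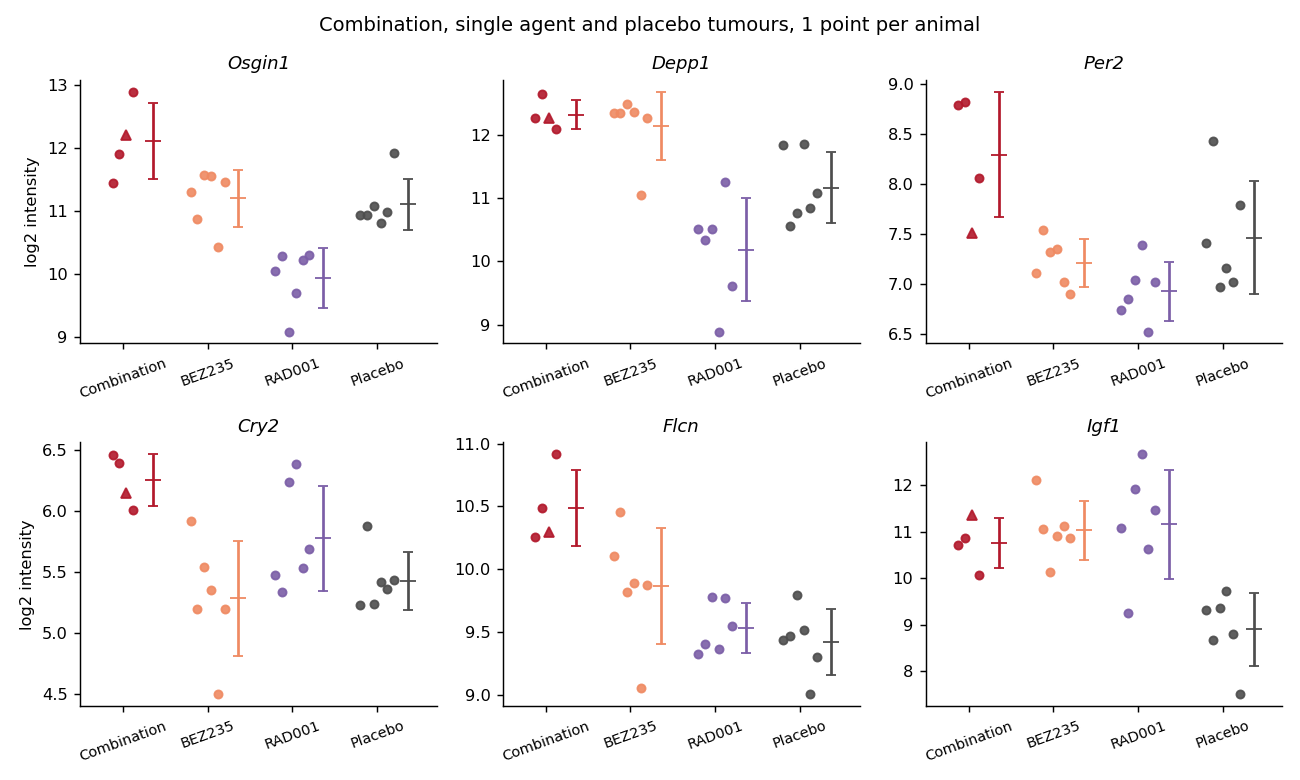
Log2 intensity (y axis, a scale of its own in each panel) in combination, BEZ235, RAD001 and placebo tumours for 6 genes, 1 point per animal, with mean and SD beside the points and a triangle for animal 773. RAD001 tumours lie lowest for Osgin1 and Depp1, the genes that passed against them, and combination tumours lie highest by mean in every panel but that of Igf1.

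Other leading genes were side by side as follows. Flcn differed from placebo by 1.07 in combination, 0.45 in BEZ235 and 0.11 in RAD001 tumours, and Zfp655 by 0.89, 0.34 and 0.01. Igf1 differed by 1.85, 2.13 and 2.26, Cyp2f2 by 3.10, 2.50 and 2.05, and Pigr, the transporter of immunoglobulin A, by 1.98, 2.03 and 1.94. The same placebo animals stand behind each triple. The direct difference between combination and RAD001 tumours had an adjusted p of 0.0737 for Zfp655 (0.88, SE 0.16) and of 0.213 for Flcn (0.96, SE 0.20).

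Finally, the effect in tumours was set against the effect in the livers of the same treatments. In livers 13 genes passed between combination and placebo (0.124%), 8 higher (0.0762%) and 5 lower (0.0476%). Among those that rose were Depp1, by 2.16 (SE 0.30, adjusted p = 6.28e-05), Efna1, an ephrin ligand, by 1.62, Klf6 by 1.43, Ccn2, a matrix protein of wound healing, by 1.38, Osgin1 by 1.18, Irs2 by 1.17 and Zfp655 by 0.59. In tumours the differences were 1.16 for Depp1, 1.53 for Efna1, 1.17 for Klf6, 0.22 for Ccn2 (0.45 without 773, 0.03 without placebo 710), 1.00 for Osgin1, 0.70 for Irs2 and 0.89 for Zfp655. Those that fell in livers were Klf2 (-1.35), Cabyr (-1.59), Obp2a (-1.65), Cox8b (-1.08) and Frat2 (-0.95). In tumours Klf2 differed by -0.75 and the other 4 between -0.07 and 0.23, and Cox8b was not above noise on any tumour array.

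The difference between the tumour effect and the liver effect passed for 1 gene (0.00953%), with 886 (8.44%) at an unadjusted p under 0.05. Cyp2f2 differed between tissues by 3.33 (SE 0.59, adjusted p = 0.0102). Its liver levels ran from 13.34 to 14.22 in combination animals and from 13.64 to 13.98 in placebo animals, a difference of -0.24. The fit took 1 spread per gene over livers and tumours together. For Cyp2f2 the SD between animals was 1.32 in combination and 1.11 in placebo tumours, against 0.29 and 0.12 in the livers. The smaller spread between livers thus entered the SE, and an adjusted p for a tissue difference has that limit. Without animal 773 the tissue difference was 2.78 with an adjusted p of 0.150, and 0 genes passed. Pim3 (1.36, SE 0.29) and Pigr (2.29, SE 0.48) followed with an adjusted p of 0.0575 each, as did Cabyr (1.79, SE 0.38), which fell in livers and was above noise on 1 of 7 combination and 1 of 10 placebo tumour arrays, then Igf1 (1.98) and Igf2r (-0.94) with 0.130. For Pim3, Pigr, Igf1 and Igf2r the liver difference lay between -0.33 and 0.02.

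**Figure D5:**
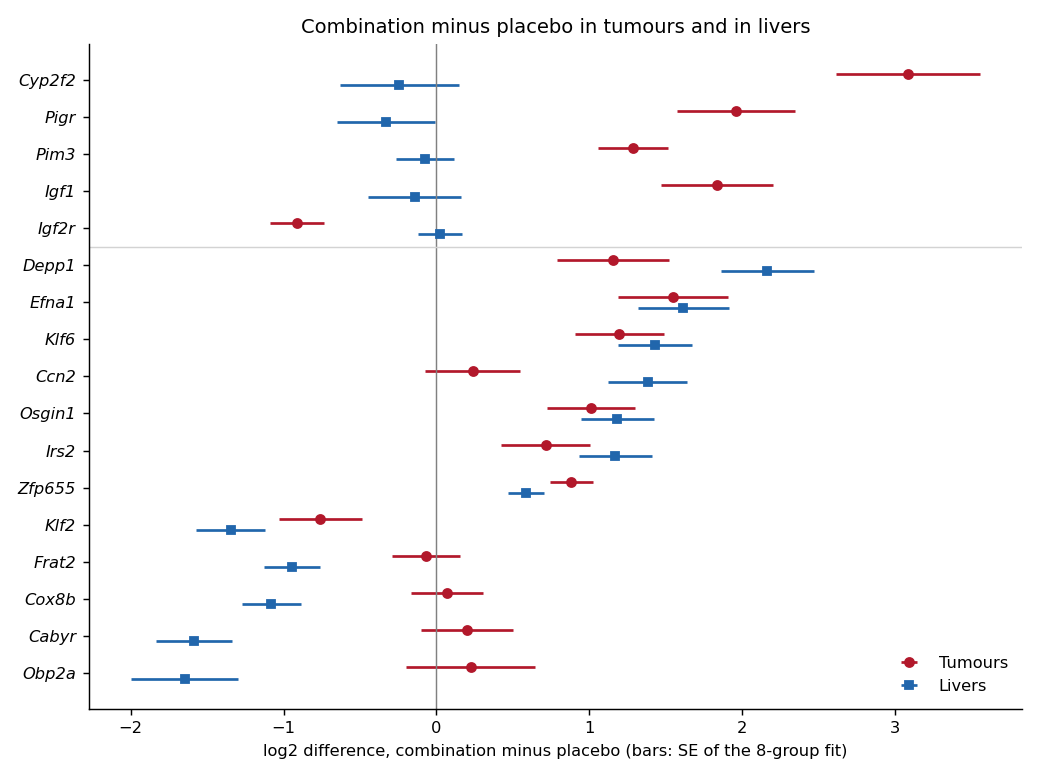
Log2 difference of combination minus placebo (x axis) in tumours (circles) and livers (squares) for 17 genes, with SE of the fit of all 8 groups. The upper 5 genes lie away from 0 in tumours and near 0 in livers, and the lower 12 are genes that passed in livers.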

How the data were processed

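RNA of liver and tumour was extracted with RNeasy and labelled for Illumina mouse arrays, per the labels' protocols. The deposited values are linear probe intensities with background subtracted, made by the authors in BeadStudio per the submitters' processing notes, whose version is not given in the sources used here. Arrays of each treatment, liver and tumour together, shared 1 set of brightest intensities (log2 range 0, against 0.117 over all arrays), so the authors had normalized each treatment on its own, and that step and the treatment cannot be told apart. Median intensity was 9.36 for combination and 9.71 for placebo arrays. A further table's 128 value columns match no sample label and were not used.

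All 64 arrays were quantile-normalized together, background-corrected by normexp (mean 0, SD 7.03 from mirrored negative values, offset 16) and log2-transformed. A probe had to exceed 14.1, which is 2 SDs of the noise, on 6 or more arrays, which kept 15244 of 25697, and the brightest probe stood for a gene. The platform annotation gave 23978 probes 1 symbol, 0 several and 1719 none; 23962 symbols were updated by Entrez number. Close paralogs may share probe signal.

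Tests were limma's moderated test, two-sided, with Benjamini-Hochberg adjustment over 10495 genes with calls at 0.05, in limma 3.58.1 under R 4.3.3. A check on simulated data drew independent values with 1 spread per gene. It covered neither the correlation within animals nor unequal spreads of tumours and livers. Animal means of the 4 tumour groups were fitted. For tissue differences the fit held 8 groups, and animals entered as a random block (correlation 0.0968). The name of an animal is the number that starts its title, and no 2 arrays were duplicates (correlations of 0.931 to 0.979). The text names the 12 lowest-p genes per direction and leading genes of the other comparisons. These rankings left out predicted genes that lack a proper name. Named too are up to 3 lowest-p members per list and 12 genes followed throughout (Alb, Igf2, Afp, Fasn, Gpc3, Pck1, Glul, G6pc, Sqstm1, Igfbp1, Cyp7a1, Map1lc3b). Members, the 45 gene lists and tests were chosen with earlier results of these data known. A gene not above noise on any array of a group has only a bound there, from the means of log2 values against the lowest detected signal. Alternatives covered normalization, background, filter, probes, arrays in the fit, variance model and each animal left out.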

Additional observations from a re-analysis of the deposited data

Results flagged for a closer look

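Of 180 groups of animals examined over 89 genes and the score, 12 had a single animal far from the rest by a test that flags about 1 group in 20 by chance. Combination animal 773 was that animal for Cyp2f2 (14.59, group median 11.99), Cish (9.64), Gclc (7.87), Cd63 (10.48) and the tumour signature score (0.390, group median 0.825). Placebo animal 710 was that animal for Cyp2f2 (7.42), Cish (8.60), Cry2 (5.87) and Cd63 (12.44). Placebo animal 769 stood apart for Rab39b (5.86), placebo animal 771 for Osgin1 (11.91) and combination animal 713 for G6pc (11.05). The effect on Cyp2f2 differed between tumours and livers by 3.33 with the interaction test, whose SE took 1 spread per gene over livers and tumours together.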

How the results depend on the processing

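The count of 0 genes between combination and placebo tumours held without any single animal and in 10 of the 11 other listed settings that kept all animals. It was 10 with every tumour as its own array and, in a fit added after the data were seen, 19 with all 8 groups. Against RAD001 tumours the count of 2 was 7 with every tumour as its own array, 1 with 1 tumour per animal, 1 without background correction, 1 without a filter, and 1 to 3 with single animals left out. Against BEZ235 tumours it stayed 0. The tissue difference passed for 0 to 5 genes with single animals left out, 0 without combination animal 773, 5 without 775, 3 each without combination 713 or placebo 710, and 2 each without combination 742, placebo 748 or placebo 769. The cause was not tested. The mean score was 0.725 with all called genes and 0.680 to 0.840 without single animals. Alb turned negative with 1 tumour per animal (-0.066), with all 8 groups (-0.0047) and without background correction (-0.018), and lay between -0.21 and 0.44 without single animals. Map1lc3b lay between -0.077 and 0.21. List medians moved by more than their SD between combination animals in 51 instances and not in 939. Combination and placebo tumours come from different animals, so no pairing between the treatments was possible. The tissue difference was fitted with the animal as a block, since 4 animals of each treatment gave both tissues, and the count of 1 did not change without that block. With 4 combination animals the median SE of a difference was 0.19, which limits what could pass.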
